A study of Mus musculus with 4 samples.

Results

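The genes described here are 10 genes of the endoplasmic reticulum (ER) stress response in mouse testis: Atf4, Ddit3, Asns, Hspa5, Hsp90b1, Dnajb9, Creld2, Manf, Herpud1 and Sel1l. They were taken by symbol from a table of raw counts for 28595 genes, and all 10 had counts. The table holds 12 libraries made from 10 µm testis sections by photo-isolation chemistry, a method that uses ultraviolet light to free blocked DNA ends and is meant to keep cDNA from outside the lit area out of the library. There were 4 groups of 3 libraries: H3t KO testes with the entire section irradiated, wild-type (WT) testes with the entire section irradiated, H3t KO testes with irradiation of Leydig cells only, and WT testes with irradiation of Leydig cells only. H3t is a histone H3 variant of the testis. The WT titles carry the word young, while the age of the H3t KO mice, any other allele and the animals behind each library are not stated in the labels. p-values therefore measure only the spread between these libraries, which may be technical. The deposited barcode list gives the 3 samples of a group 1 shared library name, so this shared library and the group cannot be told apart.

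The ER folds secreted and membrane proteins, and Leydig cells also carry much of their steroid synthesis in it. When unfolded proteins build up, the sensors PERK, IRE1 and ATF6 start the unfolded protein response. PERK slows translation and favours the making of the transcription factor ATF4, while ATF6 and the IRE1 product XBP1 switch on chaperones and the machinery that returns misfolded proteins to the cytosol for degradation. Spermatocytes and spermatids have ER chaperones of their own.

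RefSeq promoter windows of build GRCm38.p6, 250 bases before to 50 bases after a start, were at hand for 9 of the 10 genes, all but Manf. The ER stress element, which ATF6 is known to bind together with NF-Y, was searched on both strands as CCAAT, 9 bases of any kind and CCACG. It was in 39 of 32851 windows (0.119%) and in 3 of the 9 windows, those of Hspa5, Hsp90b1 and Creld2. The ER stress element II, ATTGG, 1 base of any kind and CCACG, was in 12 windows (0.0365%), among them that of Herpud1. The C/EBP-ATF response element, TGATGNAA, a site type of ATF4, was in 1304 windows (3.97%), among them those of Asns and Herpud1. The unfolded protein response element TGACGTGG was in 222 windows (0.676%) and in none of the 9. In the 9 windows no match overlapped a match to another of these motifs. The stretches below are shown because they carry these matches in the genes whose counts are compared afterwards. Capitals mark the match, and each stretch reads 5′ to 3′ on the gene's own strand. Hsp90b1 had a second match, on the opposite strand, starting 107 bases before its start. A match is a description of these letters only.
Hspa5 (chr2:34772000-34772068, plus strand): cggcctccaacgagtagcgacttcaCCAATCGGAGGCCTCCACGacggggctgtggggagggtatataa
Hsp90b1 (chr10:86705613-86705681, minus strand): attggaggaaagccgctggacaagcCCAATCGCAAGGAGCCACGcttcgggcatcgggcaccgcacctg
Creld2 (chr15:88819495-88819563, plus strand, match on the opposite strand): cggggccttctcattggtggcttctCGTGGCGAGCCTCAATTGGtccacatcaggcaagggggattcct
Herpud1, ER stress element II (chr8:94386352-94386412, plus strand): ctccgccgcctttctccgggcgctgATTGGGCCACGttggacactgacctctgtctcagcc
Asns, C/EBP-ATF element (chr6:7693200-7693257, minus strand): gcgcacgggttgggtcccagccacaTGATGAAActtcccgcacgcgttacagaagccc

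Library totals were 321771 to 475764 counts in H3t KO sections, 247539 to 566527 in WT sections, 15208 to 53003 in H3t KO Leydig-targeted libraries and 5947 to 54882 in WT Leydig-targeted libraries. A single count was worth 2.10 to 3.11 CPM, the count scaled to its library's total, in H3t KO sections and 1.77 to 4.04 CPM in WT sections. In the shallowest library, WT Leydig-targeted replicate 3, it was worth 168 CPM, and the 10 genes had 3 counts there in all. The targeted gene, listed as H3f4 and annotated as an unprocessed pseudogene, had 1 count in 1 WT section library and 0 in the other libraries, so it checks no label. Leydig markers (11 of 12 listed were in the table) held 3.61% to 4.31% of counts in H3t KO sections and 0.323% to 0.651% in WT sections, and 6.49% to 7.96% in H3t KO Leydig-targeted libraries against 1.31% to 2.84% in WT ones. Spermatid markers (14) held 0.0173% to 0.0929% in H3t KO sections and 2.87% to 5.42% in WT sections, and 0% to 0.0113% in H3t KO Leydig-targeted libraries against 1.38% to 2.92% in WT ones. WT libraries aimed at Leydig cells thus still held spermatid RNA, with all 14 markers counted, while in the H3t KO ones 9 of the 14, Tnp1, Tnp2, Acr and Odf1 among them, were at 0. Spermatocyte markers (12) held 0.0155% to 0.0171% in H3t KO sections and 0.436% to 0.556% in WT sections, and 0.0113% to 0.0252% against 0.471% to 0.687% in the Leydig-targeted pair. Sertoli markers (14) held 1.47% to 1.57% in H3t KO sections and 0.283% to 0.563% in WT sections, and 0.598% to 0.962% against 0.269% to 0.499% in the Leydig-targeted pair. Macrophage markers (12) held 0.15% to 0.375% in H3t KO sections and 0.0243% to 0.0545% in WT sections, and 0.0857% to 0.3% against 0.0261% to 0.0419% in the Leydig-targeted pair. Markers of spermatogonia (10), peritubular myoid (8), endothelial (8) and plasma or B cells (7 of 8 listed) held at most 0.239% per list in any library. Of these, peritubular myoid markers held 0.189% to 0.239% in H3t KO sections and 0.0557% to 0.117% in WT sections. Endothelial and plasma or B cell markers, at lower shares, were also higher in every H3t KO section than in any WT section. In the Leydig-targeted pair the peritubular myoid ranges overlapped. In such bulk libraries fewer cells of a type and less RNA per cell cannot be told apart.

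The share of all counts that the 10 genes took together was 0.176% ± 0.00607 in H3t KO sections and 0.183% ± 0.0224 in WT sections, and 0.207% ± 0.0738 in H3t KO Leydig-targeted libraries and 0.146% ± 0.0832 in WT Leydig-targeted libraries (SD, n = 3 each). The ranges overlapped in both pairs. Within that share the make-up differed: Hspa5 supplied 45.0% to 48.8% of the genes' counts in H3t KO sections and 34.1% to 41.3% in WT sections, 2 ranges that do not overlap. With Creld2 left out of the sum they overlapped, at 48.3% to 51.6% in H3t KO sections and 47.4% to 55.3% in WT sections, so the difference goes with Creld2. In Leydig-targeted libraries it supplied 40.6% to 47.4% in H3t KO and 28.6% to 33.3% in WT, the WT value of replicate 3 resting on 1 count of 3. Without Creld2 these ranges too overlapped, at 41.0% to 47.4% in H3t KO and 32.6% to 45.1% in WT.

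**Figure D1:**
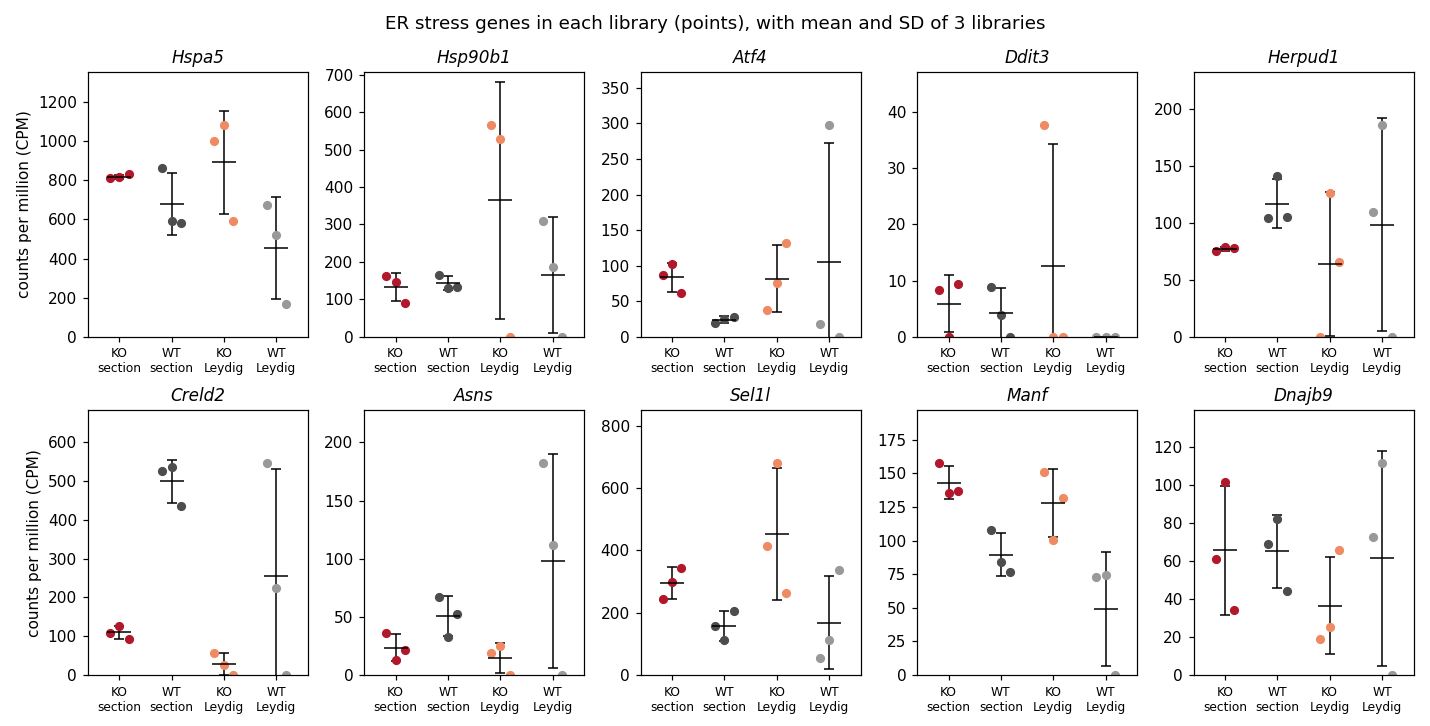
CPM (vertical axis, linear, from 0, own scale in each panel) of the 10 genes in each of the 12 libraries (points, replicates 1 to 3 from left to right), with the mean and SD of the 3 libraries of a group. Creld2 lies between 93.2 and 127 CPM in H3t KO sections and between 436 and 536 CPM in WT sections, while Atf4 lies between 62.2 and 102 CPM in H3t KO sections and between 19.4 and 28.3 CPM in WT sections; the Leydig-targeted libraries scatter more, and their zeros are libraries with no count.

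In entire sections, H3t KO against WT, 1 of the 9 tested genes rose and 3 fell. Atf4 rose, and Creld2, Asns and Herpud1 fell, with Creld2 the furthest from zero change. Ddit3 did not pass the filter on low counts. A call means an adjusted p under 0.05 in edgeR's quasi-likelihood test with TMM scaling (trimmed mean of M values) over 5182 genes. At this threshold 61.6% of all tested genes were called in this comparison, 22.6% higher and 39.1% lower, so 4 of 9 is no larger a share than the background. TMM factors were 0.975 to 1.05 in H3t KO sections and 0.567 to 0.772 in WT sections, so a log2 difference is lower than the ratio of CPM would give. Over all tested genes the median log2 difference was −0.35 with TMM and 0.22 with library size alone, and the share of higher among called genes was 36.6% with TMM and 52.2% with library size alone. With 1 library left out the TMM median ranged from −0.36 to 0.02. It was −0.01 without WT Leydig-targeted replicate 1 or 3, which are outside this comparison. With the 6 section libraries alone it was −0.04, and 45.6% of called genes were higher. This background therefore rests on single libraries. The median of the 9 genes was −0.63 with TMM.

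Of the PERK arm, Atf4 (chromosome 15, 80255184 to 80257541, plus strand), the transcription factor that PERK signalling favours in translation, had 41, 40 and 20 counts in H3t KO sections, against 11, 13 and 7 in WT sections. In CPM these were 86.2, 102 and 62.2 in H3t KO sections and 19.4, 24.9 and 28.3 in WT sections. Every H3t KO section was above every WT section, as for 39.6% of all tested genes. It differed by a log2 value of 1.21 ± 0.49 (SE, adjusted p = 0.0240). The call was lost with DESeq2 (1.14, adjusted p = 0.0706) and without H3t KO section replicate 1 (adjusted p = 0.0762), H3t KO section replicate 2 (0.0871) or WT section replicate 3 (0.0524). Atf4 reached the filter's 66.1 CPM in H3t KO section replicates 1 and 2 and H3t KO Leydig-targeted replicates 2 and 3. Of the WT libraries only Leydig-targeted replicate 2 reached it, and no WT section did. Atf4 was thus tested mainly through the genotype where it is high in sections. Leydig markers were higher too, at 3.61% to 4.31% of counts in H3t KO sections and 0.323% to 0.651% in WT sections. So were Sertoli markers (1.47% to 1.57% against 0.283% to 0.563%) and macrophage markers (0.15% to 0.375% against 0.0243% to 0.0545%). Peritubular myoid markers were higher as well (0.189% to 0.239% against 0.0557% to 0.117%), as were the scarcer endothelial and plasma or B cell markers. Spermatocyte and spermatid markers were lower. The part of these cell types in the result was not tested. Asns (chromosome 6, 7675169 to 7693254, minus strand), asparagine synthetase, a classical ATF4 target, was called in the opposite direction. It had 17, 5 and 7 counts in H3t KO sections (35.7, 12.7 and 21.8 CPM) and 38, 17 and 13 in WT sections (67.1, 32.5 and 52.5 CPM). The ranges overlapped by 1 library, H3t KO replicate 1 lying above WT replicate 2. The fitted log2 difference was −1.61 ± 0.52 (adjusted p = 0.00415), and without WT section replicate 1 it was −1.05 (adjusted p = 0.117). Asns reached the filter's 66.1 CPM in WT libraries alone, in section replicate 1 (67.1) and Leydig-targeted replicates 1 and 2 (182 and 112). It was thus tested only through the genotype where it is high. Ddit3 (chromosome 10, 127290774 to 127296288, plus strand), which encodes the pro-apoptotic factor CHOP, had 4, 0 and 3 counts in H3t KO sections and 5, 2 and 0 in WT sections. Pooled, this is a ratio of 1.12 with an exact 95% interval of 0.336 to 3.75, so a change of a few fold was not detectable at this depth.

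Among the chaperones and their partners, Hspa5 (chromosome 2, 34771970 to 34777547, plus strand) encodes BiP, the main ER chaperone and the repressor of the 3 sensors. It had 809, 819 and 829.8 CPM in H3t KO sections, against 861, 593 and 582 CPM in WT sections. The H3t KO values lie close together and inside the WT range. The log2 difference was −0.30 ± 0.45 (adjusted p = 0.570), near the median of all genes, and it was 0.27 with library size alone. Hsp90b1 (chromosome 10, 86690209 to 86705509, minus strand) encodes GRP94, the ER form of HSP90. It had 162, 145 and 90.1 CPM in H3t KO sections, against 164, 130.1 and 133 CPM in WT sections. The ranges overlapped, and the log2 difference was −0.69 ± 0.45 (adjusted p = 0.175). Dnajb9 (chromosome 12, 44205559 to 44210326, minus strand), the BiP co-chaperone ERdj4, had 61.0, 102 and 34.2 CPM in H3t KO sections, against 68.8, 82.3 and 44.4 CPM in WT sections. The WT values lie inside the H3t KO range, with a log2 difference of −0.63 ± 0.44 (adjusted p = 0.209).

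Creld2 (chromosome 15, 88819646 to 88826683, plus strand), a secreted ER protein induced by ER stress whose window holds the ER stress element printed above, fell the furthest of the 9 in log2 terms. It had 52, 50 and 30 counts in H3t KO sections, against 298, 280 and 108 in WT sections. In CPM these were 109, 127 and 93.2 in H3t KO sections and 526, 536 and 436 in WT sections. The groups lie far apart, with every H3t KO section below every WT section, as for 36.0% of all tested genes. The pooled ratio was 4.63-fold lower in H3t KO, with an exact 95% interval of 3.83 to 5.62 that covers counting error only. In log2 terms the difference was −2.78 ± 0.47 (adjusted p = 1.79e-08), and the call held under every alternative run. Spermatid markers fell with it, at 0.0173% to 0.0929% of counts in H3t KO sections and 2.87% to 5.42% in WT sections. Their part in the result was not tested. Manf (chromosome 9, 106838312 to 106891979, minus strand), a secreted factor that binds BiP in the ER, had 158, 135 and 137 CPM in H3t KO sections, against 108, 84.2 and 76.8 CPM in WT sections. Every H3t KO section was above every WT section in CPM, as for 39.6% of all tested genes. After TMM scaling the log2 difference was 0.08 ± 0.42 (adjusted p = 0.881). On the opposite strand, Manf shares 146 exon bases with Dcaf1, Hsp90b1 shares 415 with 1810014B01Rik, and Ddit3 shares 68 with Mars. Since the strand setting of the counting is not given, reads from these shared bases cannot be told apart. On the same strand, Ddit3 shares 105 exon bases with a second protein-coding entry of that name. Hsp90b1 shares 133 there with Gm25745 and 84 with Gm15344, and Manf shares 14 with Rbm15b. Of these same-strand entries only Rbm15b is among the counted genes. How reads from the same-strand bases were assigned is not stated.

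Of the degradation genes, Herpud1 (chromosome 8, 94386438 to 94395377, plus strand) encodes a membrane protein that gathers the ER-associated degradation complex. It had 75.7, 79.0 and 77.7 CPM in H3t KO sections, against 104, 142 and 105 CPM in WT sections. The H3t KO values are close together and all below the WT values, as for 36.0% of all tested genes. It differed by a log2 value of −1.22 ± 0.43 (adjusted p = 0.00917). It was −0.60 with library size alone (adjusted p = 0.167), and the call was also lost without the filter (0.145) and without H3t KO section replicate 1 (0.0541), WT section replicate 1 (0.0560), WT section replicate 2 (0.0927) or WT Leydig-targeted replicate 3 (0.0517). The lower spermatid share given beside Creld2 also goes with Asns and Herpud1, where its part was not tested. Sel1l (chromosome 12, 91806043 to 91849157, minus strand), the adaptor of the HRD1 ubiquitin ligase, had 244, 298 and 345 CPM in H3t KO sections, against 157, 111 and 206 CPM in WT sections. Every H3t KO section lay above every WT section, as for 39.6% of all tested genes. The log2 difference with TMM was 0.35 ± 0.44 (adjusted p = 0.505). It was 0.92 with library size alone (adjusted p = 0.0283) and 0.68 in a fit of the 6 section libraries alone (adjusted p = 0.0471).

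**Figure D2:**
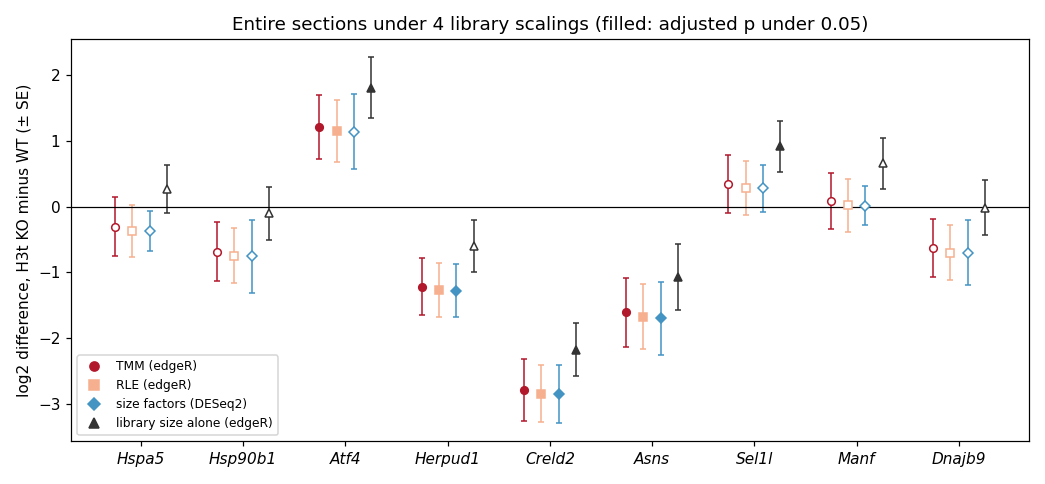
Log2 difference, H3t KO minus WT, in entire sections (vertical axis, ± SE) of the 9 tested genes under 4 scalings of the libraries; filled symbols have an adjusted p under 0.05. Library size alone moves each gene up relative to TMM, which takes Hspa5 to 0.27 and Sel1l to 0.92, while Creld2 stays filled and below 0 in each.

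In Leydig-targeted libraries, H3t KO against WT, Sel1l rose, and Creld2 and Asns fell. The other 6 tested genes, Atf4, Hspa5, Hsp90b1, Dnajb9, Manf and Herpud1, did not pass the test. The background was 28.5% of 5182 genes called, 7.55% higher and 20.9% lower, and the genes' 3 of 9 stands near it. The median log2 difference was −0.89 for the 9 genes and −0.28 for all tested genes. It was −0.09 for all genes with library size alone, where 35.1% of called genes were higher, against 26.5% with TMM. With 1 library left out the TMM median of all genes ranged from −0.66 to −0.08. All 3 calls were lost without WT Leydig-targeted replicate 1, the deepest WT library of this pair. The calls over all genes fell with it, to 592 of 5182 (11.4%), 69 of them higher. Mitochondrially encoded transcripts held 2.08% to 2.82% of counts in these H3t KO libraries and 3.22% to 8.76% in the WT ones, ranges that do not overlap, and the part of this in the results was not tested.

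Sel1l had 22, 27 and 4 counts in H3t KO Leydig-targeted libraries (415, 680.3 and 263 CPM), against 3, 3 and 2 in WT ones (54.7, 112 and 336 CPM). The ranges overlap because the 2 counts of the shallowest WT library weigh 336 CPM. Pooled, the ratio was 5.38-fold higher in H3t KO (exact 95% interval 2.54 to 13.1). The log2 difference was 2.11 ± 0.73 (adjusted p = 0.0182), and it was 1.40 without WT Leydig-targeted replicate 1 (adjusted p = 0.284). The call was also lost without WT section replicate 1 (0.0539) or H3t KO Leydig-targeted replicate 2 (0.0852). Leydig markers, at 6.49% to 7.96% of counts in H3t KO and 1.31% to 2.84% in WT, moved with it. So did Sertoli markers (0.598% to 0.962% against 0.269% to 0.499%) and macrophage markers (0.0857% to 0.3% against 0.0261% to 0.0419%). Spermatocyte and spermatid markers were lower. The part of these cell types was not tested.

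Creld2 had 3, 1 and 0 counts in H3t KO Leydig-targeted libraries, against 30, 6 and 0 in WT ones. In CPM these were 56.6, 25.2 and 0 in H3t KO and 547, 223 and 0 in WT. Apart from the libraries at 0, the WT values lie above the H3t KO values. The pooled ratio was 11.1-fold lower in H3t KO (exact 95% interval 3.97 to 42.8). On the log2 scale the difference was −3.49 ± 0.85 (adjusted p = 0.000651), and it was −2.46 without WT Leydig-targeted replicate 1 (adjusted p = 0.150). Spermatid markers, at 0% to 0.0113% in H3t KO and 1.38% to 2.92% in WT, again moved with Creld2, and their part was not tested. Asns had 1, 1 and 0 counts in H3t KO, against 10, 3 and 0 in WT. With 2 counts against 13 the pooled ratio was 0.125, with an exact 95% interval of 0.0137 to 0.552. The edgeR call, for a gene that passed the filter through WT libraries alone, had an adjusted p of 0.0208. It was lost without the filter (0.255) and without H3t KO Leydig-targeted replicate 1 (0.0711) or WT Leydig-targeted replicate 1 (0.301).

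Atf4 had 2, 3 and 2 counts in H3t KO Leydig-targeted libraries, against 1, 8 and 0 in WT ones. Of the 9 WT counts 8 came from replicate 2, at 298 CPM. In log2 terms the difference was −0.89 ± 0.90 (adjusted p = 0.492), and it was 1.75 without that library, so its direction rests on 1 library. Hspa5 had 53, 43 and 9 counts in H3t KO (999.9, 1083 and 592 CPM), against 37, 14 and 1 in WT (674, 521 and 168 CPM). The ranges overlapped, and the log2 difference was 0.58 ± 0.54 (adjusted p = 0.446). Hsp90b1 had 30, 21 and 0 counts in H3t KO, against 17, 5 and 0 in WT. The zero of H3t KO replicate 3 stands beside 566 and 529 CPM in the other two, and the log2 difference was 0.68 ± 0.60 (adjusted p = 0.422). Manf had 8, 4 and 2 counts in H3t KO and 4, 2 and 0 in WT, the 1 tested gene of the 9 whose CPM ranges did not overlap here, as for 13.5% of all tested genes in that direction. Its log2 difference was 0.71 ± 0.89 (adjusted p = 0.590). Herpud1 had 0, 5 and 1 counts in H3t KO and 6, 5 and 0 in WT, with a log2 difference of −1.32 ± 0.90 (adjusted p = 0.279). Dnajb9 had 1 count in each H3t KO library and 4, 3 and 0 in WT, a pooled ratio 2.87-fold lower in H3t KO with an exact 95% interval of 0.656 to 17.2. Ddit3 had 2, 0 and 0 counts in H3t KO and 0, 0 and 0 in WT, under the floor of 3 counts in both.

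**Figure D3:**
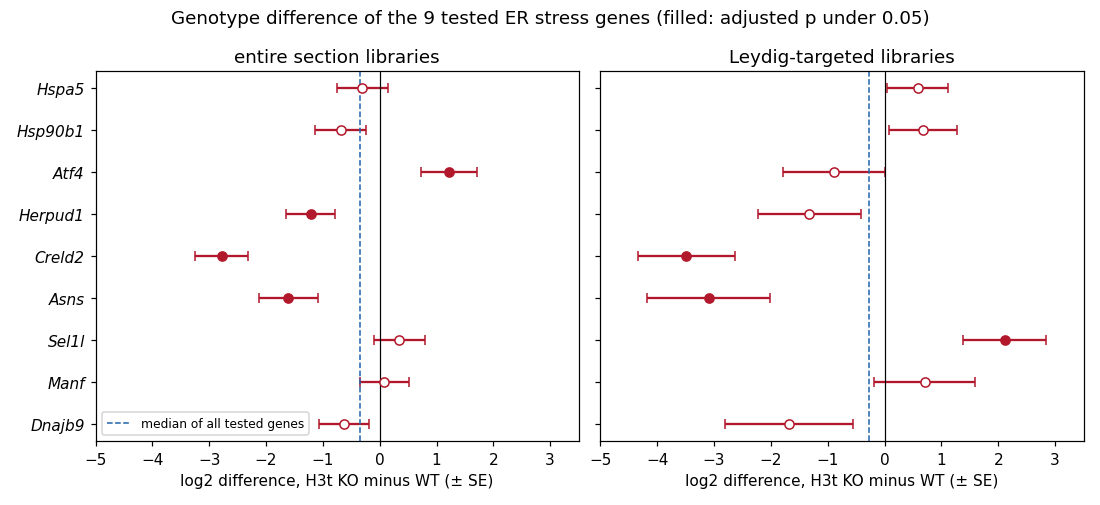
Log2 difference, H3t KO minus WT (horizontal axis, ± SE), of the 9 tested genes in entire sections (left) and in Leydig-targeted libraries (right); filled points have an adjusted p under 0.05, and the dashed line is the median of all tested genes. Creld2 and Asns lie left of the line and are filled in both panels, Atf4 and Herpud1 are filled in sections, and Sel1l is filled in Leydig-targeted libraries at 2.11.

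Whether the genotype difference itself depended on the irradiated area was tested as an interaction in the same fit, where 0.328% of all tested genes were called, 0.193% higher and 0.135% lower. With 1 library left out, 7 to 78 genes were called in place of 17, the 7 without H3t KO section replicate 1 and the 78 without WT Leydig-targeted replicate 3. None of the 9 genes was called by edgeR, and none by DESeq2. At an unadjusted p under 0.05 there were 2, Sel1l and Atf4. For Sel1l the difference of the log2 differences was 1.76 ± 0.87 (adjusted p = 0.451). For Atf4 it was −2.10 ± 1.03 (adjusted p = 0.449), and 0.53 without WT Leydig-targeted replicate 2. For Hsp90b1 it was 1.37 ± 0.75 (adjusted p = 0.524). The calls of Atf4 and Herpud1 in sections and of Sel1l in Leydig-targeted libraries are thus not shown to differ between the areas.

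Set against entire sections of the same genotype, Leydig-targeted libraries gave no call for the 9 genes in either genotype. The background in H3t KO was 5.44% of all tested genes called, 1.91% higher and 3.53% lower. In WT it was 15.6%, 3.22% higher and 12.4% lower. Of the called genes, the share higher in Leydig-targeted libraries was 52.6% with library size alone and 35.1% with TMM in the H3t KO comparison, and 57.0% with library size alone and 20.6% with TMM in the WT comparison. Both counts moved with single libraries. In H3t KO 282 genes were called, against 119 to 142 without H3t KO section replicate 1 or 3 or H3t KO Leydig-targeted replicate 1 or 2, and 437 to 572 without WT section replicate 1 or WT Leydig-targeted replicate 1 or 3. In WT 809 were called, against 382 to 477 without WT section replicate 1 or any 1 of the WT Leydig-targeted libraries. These comparisons use the same libraries as the genotype comparisons. DESeq2 also called none, and at an unadjusted p under 0.05 there were 2 of the 9 in H3t KO and 2 in WT. In H3t KO, Hsp90b1 had the smallest p. It had 566, 529 and 0 CPM in Leydig-targeted libraries, against 162, 145 and 90.1 CPM in sections. The log2 difference was 1.50 ± 0.50 (adjusted p = 0.0513). Without H3t KO Leydig-targeted replicate 3, the library at 0, it was 1.62 and called (adjusted p = 0.0271), as it was with library size alone (0.00870), with RLE factors (relative log expression, 0.0192) and in a fit of the 6 libraries alone (0.00400). It was also called without WT section replicate 2 (0.0263) or WT Leydig-targeted replicate 2 (0.0418). Creld2 had 56.6, 25.2 and 0 CPM in H3t KO Leydig-targeted libraries, against 109, 127 and 93.2 CPM in H3t KO sections. Every Leydig-targeted library was below every section, as for 21.8% of all tested genes, while 8.34% were wholly above. The fitted log2 difference was −1.77 ± 0.86 (adjusted p = 0.221). In WT, Manf was the gene whose Leydig-targeted libraries all lay below the sections, as for 21.4% of all tested genes, while 7.78% were wholly above. The WT log2 difference of Creld2 was −1.06 ± 0.52 (adjusted p = 0.150) and that of Atf4 was 1.59 ± 0.77 (adjusted p = 0.145). Hspa5 differed by −0.03 ± 0.48 in H3t KO (adjusted p = 0.996) and by −0.92 ± 0.51 in WT (adjusted p = 0.212). Ordered by mean CPM over the 4 groups, neighbouring groups did not overlap in 3 of 27 pairs of the 9 tested genes (11.1%), against 24.6% of such pairs over all tested genes. These 3 were Atf4 in H3t KO Leydig-targeted libraries above WT sections, Creld2 in H3t KO sections above H3t KO Leydig-targeted libraries, and Manf in WT sections above WT Leydig-targeted libraries.

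Beyond the 10 genes, 5 lists of other genes of the response held 103 genes, of which 102 were in the table and 59 were tested. In sections 11 rose (18.6%) and 12 fell (20.3%), against 22.6% and 39.1% of all tested genes. In Leydig-targeted libraries 8 rose (13.6%) and 4 fell (6.78%), against 7.55% and 20.9% of all tested genes. The same shares of all tested genes are the background of each list below. No list had all of its tested genes called, and Creb3l4, Pdilt and Clgn, which fell the furthest of those named in sections, are known from germ cells. These genes passed the filter through WT libraries alone, so they were tested only through the genotype where they are high.

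Of the sensors and transducers, 5 were tested, while Ern1, Eif2ak3 and Xbp1, which encode IRE1, PERK and XBP1, did not pass the filter. In sections Creb3l1, an ER-bound transcription factor, rose by a log2 difference of 3.21 ± 0.60, with 92.7 ± 26.7 CPM in H3t KO and 5.34 ± 7.66 CPM in WT (SD, n = 3 each). Creb3l4, a relative made in spermatids, fell to 4.51 ± 4.67 CPM in H3t KO, against 348 ± 118 CPM in WT (log2 difference −6.80 ± 0.65), and Eif2s1, the translation factor that PERK phosphorylates, fell (log2 difference −1.88 ± 0.45). In Leydig-targeted libraries Creb3l4 had 0 counts in H3t KO and 29 in WT, at least 11.9-fold lower in H3t KO when the absent side is put at 3 counts in all. It was the 1 list member called there, and it passed the filter through WT libraries alone.

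Of the ATF4 targets and integrated stress response genes, 12 were tested, and Trib3, Chac1 and Atf3 were not. Slc7a11, Mthfd2 and Nars passed the filter through H3t KO libraries alone. Their means were 16.2, 29.5 and 38.2 CPM in WT sections and 0, 0 and 18.5 CPM in WT Leydig-targeted libraries. They were tested only through the genotype where they are high, which limits the counts and medians below. In sections 4 rose and 2 fell, with a median log2 difference of 0.73, against −0.35 over all tested genes. The other lists' medians there were −0.06 for sensors, −0.48 for chaperones, −0.31 for degradation and −0.36 for translocation genes. Slc7a5, an amino acid transporter, rose to 201 ± 22.6 CPM in H3t KO, against 25.3 ± 3.02 CPM in WT (log2 difference 2.36 ± 0.48). Ddit4, an inhibitor of mTORC1, rose by a log2 difference of 1.58 ± 0.50, while Cebpg, a partner of ATF4, fell (log2 difference −2.15 ± 0.45). The Ddit4 call was lost without WT section replicate 3 (adjusted p = 0.0520). In Leydig-targeted libraries 5 rose and none fell, with a median log2 difference of 2.15, against −0.28 over all tested genes. The list's median was 1.96 when genes with no count in 1 genotype are put at their bound. The other lists' medians there were −1.85 for sensors, −0.37 for chaperones, −0.15 for degradation and 1.33 for translocation genes. Slc3a2, the heavy chain of the same transporter, had 397 counts in H3t KO and 63 in WT, a pooled ratio 5.12-fold higher in H3t KO (exact 95% interval 3.92 to 6.79). Aars, an alanyl-tRNA synthetase, had 29 counts in H3t KO and 1 in WT, a ratio of 23.6 with an interval of 3.91 to 963. Leydig, Sertoli and macrophage markers were higher in the same libraries, at the shares given beside Sel1l, and their part was not tested. Both calls were lost without WT Leydig-targeted replicate 1 (adjusted p = 0.189 for Slc3a2 and 0.126 for Aars). Asns, which is outside this list, fell in the same comparison, with 2 counts in H3t KO and 13 in WT. That call was also lost without this library.

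Of the chaperones and disulfide enzymes, 17 were tested, and in sections 2 rose and 4 fell. Of all tested genes 22.6% were called higher there and 39.1% lower. P4hb, a protein disulfide isomerase, rose to 107 ± 13.3 CPM in H3t KO, against 25.5 ± 12.8 CPM in WT (log2 difference 1.49 ± 0.48). Uggt1, the folding sensor for glycoproteins, rose by a log2 difference of 1.12 ± 0.44, a call lost without H3t KO section replicate 1, H3t KO section replicate 3 or WT section replicate 2 (adjusted p up to 0.097). Clgn and Pdilt, a chaperone and a disulfide isomerase relative of germ cells, fell the furthest. Both passed the filter through WT libraries alone, so their falls are not independent of the filter. Clgn had 3.14 ± 3.15 CPM in H3t KO sections and 190 ± 35.4 CPM in WT sections, and Pdilt had 1.74 ± 1.59 CPM in H3t KO sections and 135 ± 40.6 CPM in WT sections. In Leydig-targeted libraries none rose, and Clgn and Pdilt fell, both with 0 counts in H3t KO, at least 6.56-fold and at least 6.15-fold lower than in WT. Clgn is also in the spermatocyte marker list, and the part of the lower spermatocyte and spermatid shares in these results was not tested.

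Of the degradation genes, 11 were tested. In sections Derl1, a part of the retrotranslocation channel, rose (log2 difference 0.97 ± 0.45, adjusted p = 0.0480), while on the same scale Fam8a1 (−3.14 ± 0.48) and the ubiquitin-conjugating enzyme Ube2j1 (−1.80 ± 0.45) fell. In Leydig-targeted libraries Derl1 rose (log2 difference 2.13 ± 0.82, adjusted p = 0.0383), and Ube2j1 fell, with 3 counts in H3t KO and 18 in WT, a pooled ratio 7.38-fold lower in H3t KO (exact 95% interval 2.16 to 39.1). The Derl1 calls were lost with the replicate block and without each of several single libraries (adjusted p up to 0.129 in sections and 0.169 in Leydig-targeted libraries), and that of Ube2j1 in Leydig-targeted libraries without H3t KO replicate 2, without WT replicate 2 or with no filter (up to 0.220). Of the translocation and signal peptide genes, 14 were tested. In sections 3 rose and 2 fell, against 22.6% of all tested genes called higher and 39.1% lower. Ssr3, of the translocon-associated complex, rose by a log2 difference of 1.78 ± 0.48 and Sec61b, a translocon subunit, by 1.64 ± 0.57. Srp14, of the signal recognition particle, fell (log2 difference −1.58 ± 0.44), as did Spcs1, of the signal peptidase (−1.47 ± 0.45). In Leydig-targeted libraries 2 rose and none fell. Ssr4 had 26 counts in H3t KO and 1 in WT, a ratio of 21.1 with an exact 95% interval of 3.47 to 866, and Ssr1 rose by a log2 difference of 2.10 ± 0.74. The call of Spcs1 was lost without WT section replicate 2 or with no filter (adjusted p up to 0.0544). That of Ssr1 was lost without WT section replicate 1, H3t KO Leydig-targeted replicate 3, or WT Leydig-targeted replicate 1 or 2 (up to 0.120).

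**Figure D4:**
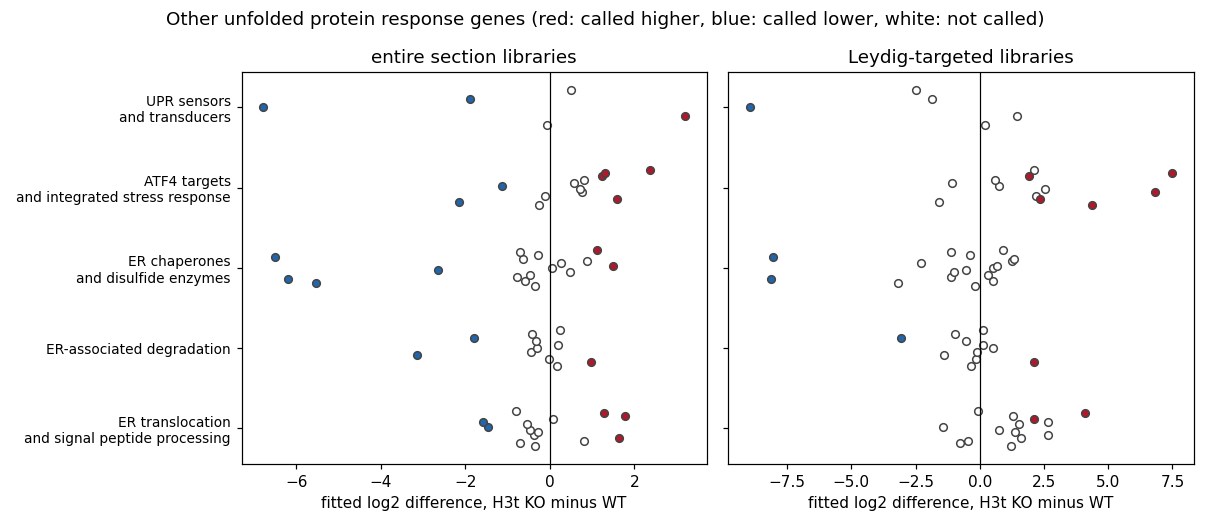
Fitted log2 difference, H3t KO minus WT (horizontal axis, own scale in each panel), of the 59 tested genes in 5 lists (rows; points spread for view) in entire sections (left) and Leydig-targeted libraries (right), red for genes called higher, blue for lower and white for not called. Called genes lie on both sides of 0 in each list in sections, with germ cell genes such as Creb3l4, Clgn and Pdilt at the far left; for genes with 0 counts in a group the fitted value depends on the fit's prior count.

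Genes like Hspa5 were sought among tested genes other than the 10. Gm-numbered and Rik gene models, pseudogenes, mitochondrially encoded genes and ribosomal protein genes were left out. Of the rest, the 5 genes whose log2 CPM was most like that of Hspa5 over the 12 libraries were Laptm4a (Pearson r = 0.978), Ddx50 (0.976), Fam126a (0.975), Usp19 (0.967) and Ppm1a (0.964). Without WT Leydig-targeted replicate 3, the shallowest library, r was 0.864, 0.853, 0.839, 0.883 and 0.890 in the same order, and within the 6 sections it was 0.559, 0.366, 0.766, 0.414 and 0.696. The libraries differ in depth, from 5947 to 566527 counts, and these values are a description. Among the 10 genes themselves, the r of Hspa5 over the 12 libraries was 0.949 with Manf, 0.797 with Hsp90b1 and 0.342 with Sel1l. With the other tested genes it lay between 0.434 (Atf4) and 0.660 (Dnajb9). These r values were not computed without WT Leydig-targeted replicate 3, where Hspa5 had 1 count and Manf and Hsp90b1 had 0.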

How the data were processed

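The deposited tables hold raw counts per gene. The build is GRCm38 and the tools named are HISAT2, featureCounts, Trim Galore and UMI-tools, per the submitters' processing notes, with no versions or strand setting. Groups followed the labels, with 3 libraries each. Positions came from GENCODE of the same build, in which all 28595 gene identifiers were found. CPM is a count scaled to its library total. Counts were fitted in edgeR 4.0.16 (R 4.3.3, robust quasi-likelihood test, TMM) with 1 coefficient for each of the 4 groups, genes kept by filterByExpr with a minimum count of 10, about 66.1 CPM, and p-values adjusted by Benjamini-Hochberg over 5182 genes. The fit was tested on simulated data. Alternatives were DESeq2 1.42.0, other scalings, no filter, 6 libraries alone, a replicate block, and each library left out.

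Same-numbered section libraries of the 2 genotypes deviated weakly together (correlations 0.243, 0.132 and 0.194 across genes). Differently numbered ones had −0.149 to −0.022. Same-numbered Leydig-targeted libraries did not deviate together (−0.00357, 0.00818 and −0.00629). No label states a pairing, and the main fit leaves the libraries unpaired. Depth fell with the library number in both section groups, and its part in these correlations was not tested.

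The 10 genes, lists and markers were chosen with earlier results of these data known. From each list, at most 2 called genes in each direction and comparison are named, by smallest p. Exact intervals and floors cover counting error only.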

Additional observations from a re-analysis of the deposited data

How the results depend on the processing

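Over 33 values for single genes, 566 of the refits gave the same direction and side of the threshold, 18 lost a call, 12 gained one and 20 turned direction. Calls in sections ranged from 2 to 4 with 1 library left out, the 2 being without H3t KO section replicate 1 or WT section replicate 1, and calls in Leydig-targeted libraries from 0 to 3, the 0 being without WT Leydig-targeted replicate 1. With the 6 Leydig-targeted libraries alone, where 3 of the genes were tested, 1 was called, beside 41.4% of all 418 genes tested there. Leydig-targeted against sections in H3t KO gave 1 call, Hsp90b1, with library size alone, with RLE factors, with 6 libraries alone and without the shallowest library of each Leydig-targeted group (1.90, a choice made after seeing the data), and 0 to 1 with 1 library left out. In WT it gave 1 with library size alone (Atf4, 2.20) and 1 with no filter (Creld2), and 0 to 1 with 1 library left out, the 1 being without WT Leydig-targeted replicate 1. Without the shallowest library of each Leydig-targeted group, 4 genes were called between genotypes in sections and 3 in Leydig-targeted libraries. The causes were not tested.

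Directions that turned were all of uncalled genes. Hspa5 in sections was 0.27 with library size alone, 0.0224 with no filter, 0.0226 with 6 libraries alone and −0.41 to 0.18 with 1 library left out. Manf in sections ranged from −0.0136 to 0.52, Atf4 in Leydig-targeted libraries from −2.03 to 1.75 and Atf4 in the interaction from −3.59 to 0.53. Hspa5 between areas in H3t KO was 0.0888 with DESeq2, 0.18 with library size alone, 0.0792 with RLE factors, 0.13 with 6 libraries alone, 0.21 without the shallowest libraries and −0.31 to 0.0629 with 1 library left out. Between areas in WT, Hsp90b1 was −0.58 with no filter, −0.13 with the replicate block and −0.44 to 0.73 with 1 library left out, and Atf4 was −1.05 to 2.79.

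The replicate block changed no call of the 10 genes, with 4 called in sections and 3 in Leydig-targeted libraries. Among 27 named calls of list genes, 17 held in all refits and 10 did not. Those lost in at least 1 refit were, in sections, Ddit4, Derl1, Ppp1r15b, Spcs1 and Uggt1, and in Leydig-targeted libraries Aars, Slc3a2, Derl1, Ssr1 and Ube2j1. Both Derl1 calls were also lost with the replicate block. Depth limits the Leydig-targeted values most, where 1 count was worth 18.2 to 168 CPM.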
